A study of Mus musculus with 2 samples.

Results

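The T-box genes other than Tbx1 were followed in single-cell RNA profiles of E9.5 mouse embryos. The members are Tbx2, Tbx3, Tbx4, Tbx5, Tbx18 and Tbx20, picked by gene symbol, and all 6 are among the 27998 genes counted in both libraries. All embryos were of the Swiss Webster strain and carried Mesp1Cre, a Cre recombinase driven in early mesoderm, with a ROSA26-GFP reporter that labels the cells in which Cre has acted (Mesp1Cre;Rosa26-GFPflox/+). The library labelled Ctrl came from embryos of this genotype, and the library labelled cKO from embryos that also had Tbx1flox/flox, both copies of Tbx1 with loxP sites. Tissue was the pharyngeal apparatus with the heart, from which GFP+ DAPI− cells were taken by sorting, and the 3′ ends of transcripts were counted by unique molecular identifiers (UMIs). Each group had 1 library, made from a pair of embryos, so there is no replicate check. Every interval given is a 95% interval for counting error only, no test was made, and the differences describe these 2 libraries. By somite count in the study's methods the embryos labelled cKO were slightly further on, so stage and genotype cannot be told apart.

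T-box proteins bind a shared DNA motif through the T domain and act as activators or repressors of transcription. Several of them pattern the heart: Tbx5 and Tbx20 are activators and regulators of chamber myocardium, Tbx2 and Tbx3 are repressors that keep chamber genes off in the atrioventricular canal and conduction system, Tbx18 is known for the sinus venosus and epicardium, and Tbx4 for the hindlimb and lung mesenchyme. Tbx1 is the family member of the pharyngeal mesoderm. In the GRCm38 build Tbx2 (chr11:85832615-85841948, ENSMUSG00000000093) and Tbx4 (chr11:85886367-85916097, ENSMUSG00000000094) are neighbours 44.4 kb apart. Tbx3 (chr5:119670534-119684724, ENSMUSG00000018604) and Tbx5 (chr5:119796514-119885220, ENSMUSG00000018263) form a similar pair, 111.8 kb apart. Tbx18 (chr9:87702800-87731260, ENSMUSG00000032419) and Tbx20 (chr9:24720812-24774303, ENSMUSG00000031965) share a chromosome but not a neighbourhood.

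After filters 6591 cells labelled Ctrl and 8969 labelled cKO remained, with medians of 16854 and 14192 UMIs, and 15 cell barcodes occurred in both libraries. Clustering without any T-box gene gave 26 clusters, of which 17 took a name from marker lists. Among the 13 names are MLP-like, for multilineage progenitors of the pharynx (854 and 1137 cells labelled Ctrl and cKO), and BrM-like, for progenitors of branchiomeric muscle (495 and 664 cells). SoM/aSHF-like stands for somatic mesoderm together with the anterior second heart field (462 and 519 cells). Its cluster had 5 of 7 markers, Msx1, Msx2, Epha3, Hand2 and Bmp4, but not Crym or Tgfbi. The study names Msx1, Msx2 and Epha3 for the somatic mesoderm, so how much of the cluster is anterior second heart field is not known. The posterior second heart field gave pSHF-like (823 and 839 cells), the mesenchyme at the inflow of the heart sinus venosus mesenchyme-like (378 and 703 cells), and cardiomyocytes CM-like (267 and 470 cells). Each CM-like cluster had all 11 cardiomyocyte markers above the other cells, and the MLP-like clusters had 8 and 11 of 12 markers. An erythroid-like cluster of 159 cells was seen only in the library labelled cKO. Levels are UMIs per 1000000 UMIs of the population (CPM), not scaled by gene length, so they are compared between populations and not between genes, and a difference is a log2 ratio of CPM, cKO over Ctrl. The median gene was shifted by −0.16 on this scale over all kept cells and by −0.16 to −0.086 within populations, so a ratio near those values is no departure from the other genes.

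Tbx1 itself was not lower in MLP-like cells of the library labelled cKO. They had 48.3 CPM in the library labelled Ctrl and 102 CPM in the other, 2.12-fold higher (1.95 to 2.31). BrM-like cells had 121 and 96.4 CPM, 1.26-fold lower (1.15 to 1.37). Counts at the 3′ end do not tell an intact Tbx1 transcript from a recombined one, so they do not check the labels, and directions below are tied to the labels alone.

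Over all kept cells every one of the 6 genes was lower in the library labelled cKO, before the shift of the median gene is taken off. Tbx4 had 83 and 40 UMIs, or 0.706 and 0.292 CPM, 2.42-fold lower (1.64 to 3.62), and was the only member past 2-fold, where 6.69% of all measured genes were. Tbx3 was at 19.01 and 10.6 CPM, 1.79-fold lower (1.68 to 1.92), and Tbx5 at 37.5 and 24.3 CPM, 1.55-fold lower (1.48 to 1.62). Relative to the median gene their log2 ratios were −0.68 and −0.47. Tbx20 was at 19.4 and 14.9 CPM, Tbx18 at 30.4 and 24.6 CPM, and Tbx2 at 6.001 and 5.26 CPM. Relative to the median gene these 3 stood at −0.22, −0.15 and −0.030, so that Tbx2 was within the common shift. The median log2 ratio of the 6 members was −0.50, beside −0.16 over all measured genes. These sums also move with the mix of cells: the share of cells that were pSHF-like was 12.5% (11.7 to 13.3) in the library labelled Ctrl and 9.35% (8.76 to 9.98) in the other, and that of SoM/aSHF-like cells 7.01% and 5.79%. Other populations with T-box genes held a larger share in the library labelled cKO, sinus venosus mesenchyme-like cells with 5.74% and 7.84%, CM-like cells with 4.05% and 5.24% and septum transversum-like cells with 3.596% and 5.35%. The part of these shares in the sums was not tested.

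**Figure D1:**
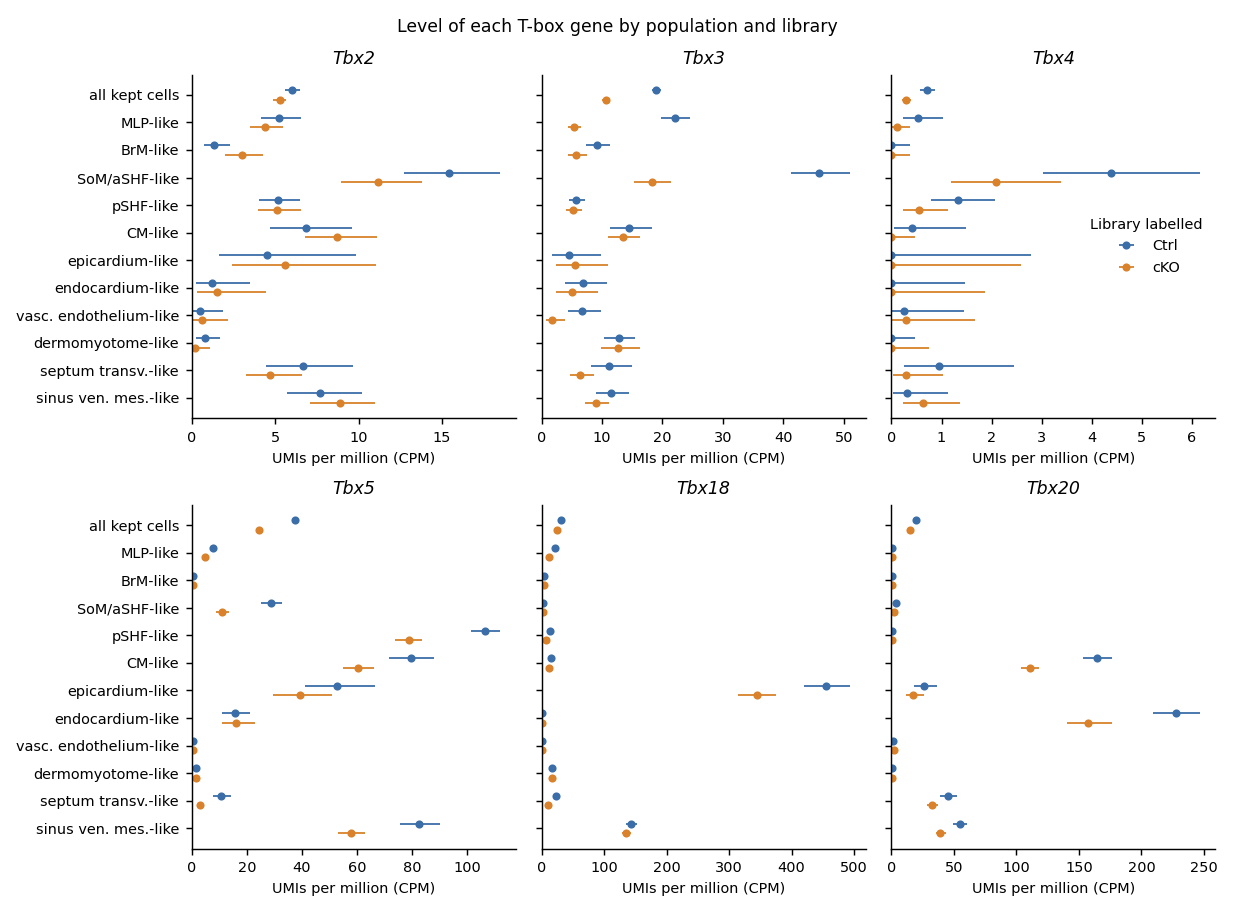
Level of each T-box gene (CPM, horizontal axis, starting at 0 and scaled per gene) in all kept cells and 11 populations, with the library labelled Ctrl in blue and the library labelled cKO in orange and bars for the 95% Poisson interval. Tbx18 stands out in epicardium-like cells (456 and 344 CPM) and then in sinus venosus mesenchyme-like cells, Tbx20 in endocardium-like and CM-like cells, and Tbx5 in pSHF-like, sinus venosus mesenchyme-like and CM-like cells.

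Tbx2 and Tbx3, a pair of closely related repressors, were both highest, among the named populations, in SoM/aSHF-like cells. Tbx3 was there at 45.97 CPM (41.3 to 51.1) in the library labelled Ctrl and 18.2 CPM (15.3 to 21.5) in the library labelled cKO. In the library labelled Ctrl MLP-like cells came next with 22.01 CPM (19.7 to 24.5), below the SoM/aSHF-like cells and above the CM-like cells, at 14.5 CPM (11.3 to 18.3), and dermomyotome-like cells, at 12.7 CPM (10.3 to 15.5), which overlapped. In the library labelled cKO the order was different. CM-like cells, at 13.4 CPM (10.9 to 16.3), and dermomyotome-like cells, at 12.7 CPM (9.75 to 16.2), overlapped with the SoM/aSHF-like cells, while MLP-like cells stood at 5.34 CPM (4.35 to 6.48). Tbx2 was at 15.4 and 11.2 CPM in SoM/aSHF-like cells, 7.705 and 8.88 CPM in sinus venosus mesenchyme-like cells and 6.84 and 8.72 CPM in CM-like cells, and at 0.517 and 0.596 CPM in vascular endothelium-like cells. The first 3 overlapped in the library labelled cKO.

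Tbx3 was lower in the library labelled cKO in both of the named populations that had most of it in the library labelled Ctrl. The MLP-like level was 4.13-fold lower (3.296 to 5.200) in the library labelled cKO, and the SoM/aSHF-like level 2.53-fold lower (2.07 to 3.097). MLP-like cells came from a pair of clusters, 1 led by Irx1, Irx2 and Prdm1 (505 and 741 cells) and 1 led by Prdm1, Nrg1 and Grem1 (349 and 396 cells), and the Irx1-led cluster held most of them in both libraries. In the Irx1-led cluster Tbx3 was at 25.5 CPM (22.6 to 28.6) and 6.69 CPM (5.42 to 8.16), with 155 and 68 positive cells. In the Prdm1-led cluster it was at 13.2 CPM (10.03 to 17.2) and 1.26 CPM (0.463 to 2.75), with 39 and 4 positive cells. The lower level in the library labelled cKO was thus seen in both clusters.

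In several other populations Tbx3 was nearly level. The pSHF-like cells had 5.73 and 5.21 CPM (log2 ratio −0.14, −0.63 to 0.35), the dermomyotome-like cells 12.7 and 12.7 CPM (−0.0062, −0.49 to 0.47) and the CM-like cells 14.5 and 13.4 CPM (−0.11, −0.57 to 0.35). BrM-like cells had 9.16 and 5.78 CPM, 1.59-fold lower (1.13 to 2.25), but the thinned shares, 5.49% (3.65 to 7.88) and 1.82% (0.941 to 3.15), overlapped with those of vascular endothelium-like cells given next, as did the level in the library labelled Ctrl, so little is read from that ratio. In vascular endothelium-like cells it was at 6.73 CPM (4.39 to 9.86) and 1.79 CPM (0.656 to 3.89), from 26 and 6 UMIs, 3.76-fold lower (1.51 to 11.2). The direction found in MLP-like cells was thus also present in these cells, at levels below the MLP-like interval of each library. After each cell was thinned to 5000 UMIs, 7.43% (5.76 to 9.41) of MLP-like and 4.13% (1.905 to 7.69) of vascular endothelium-like cells labelled Ctrl had a Tbx3 UMI, with median depths of 16103 and 16272 UMIs before thinning. The corresponding shares were 2.303% (1.51 to 3.36) and 1.84% (0.504 to 4.65) in the library labelled cKO. The intervals of these shares overlapped in both libraries, so nothing is read from the MLP-like share, while the intervals of the levels in CPM did not overlap in either library. Endocardium-like cells had Tbx3 at 6.79 and 5.06 CPM from 17 and 10 UMIs. The MLP-like level labelled cKO, 5.34 CPM, was near theirs, while the one labelled Ctrl, 22.01 CPM, was higher. Below, a gene is called not told apart from background where both its share and its level overlapped with those of vascular endothelium-like cells. Free RNA was not measured in these files. SoM/aSHF-like cells lay above the vascular endothelium-like shares, with 18.4% (14.9 to 22.2) and 7.56% (5.43 to 10.2). Without thinning 22.7% and 6.33% of MLP-like cells had a Tbx3 UMI, and 44.6% and 21.2% of SoM/aSHF-like cells.

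Tbx4, the neighbour of Tbx2, was close to the detection limit everywhere. SoM/aSHF-like cells had the most among named populations, 33 and 16 UMIs or 4.38 CPM (3.02 to 6.16) and 2.08 CPM (1.19 to 3.38), 2.11-fold lower (1.13 to 4.102) in the library labelled cKO. The pSHF-like cells had 19 and 7 UMIs. BrM-like, endocardium-like, epicardium-like and dermomyotome-like cells had none in either library, which allows up to 0.309 CPM in BrM-like cells labelled Ctrl and 2.26 CPM in the fewer epicardium-like ones. Outside SoM/aSHF-like cells no named population reached 30 UMIs of Tbx4 over both libraries, so no ratio is given there.

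Tbx5, an activator in the atria, the posterior second heart field and the forelimb field, was highest in pSHF-like cells among the named populations. The level there was 106 CPM (101 to 112) in the library labelled Ctrl and 78.7 CPM (73.8 to 83.7) in the library labelled cKO. Sinus venosus mesenchyme-like cells, at 82.6 CPM (75.6 to 89.9) and 57.8 CPM (53.1 to 62.8), and CM-like cells, at 79.4 CPM (71.7 to 87.8) and 60.4 CPM (55.05 to 66.2), overlapped with each other in both libraries and stood below the pSHF-like cells. Epicardium-like cells followed with 52.7 CPM (41.1 to 66.6) and 39.2 CPM (29.6 to 50.8). BrM-like, dermomyotome-like and vascular endothelium-like cells were all at or below 1.43 CPM in both libraries.

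The difference in Tbx5 was smaller where the gene was high than in some populations with less of it. The log2 ratio was −0.44 (−0.55 to −0.32) in pSHF-like, −0.51 (−0.69 to −0.34) in sinus venosus mesenchyme-like and −0.39 (−0.59 to −0.20) in CM-like cells, none of them past 2-fold. In SoM/aSHF-like cells Tbx5 was at 28.7 and 10.9 CPM, 2.63-fold lower (2.03 to 3.42) in the library labelled cKO. In septum transversum-like cells, the mesoderm beside the liver bud, it was at 10.7 and 2.85 CPM from 45 and 20 UMIs, 3.76-fold lower (2.17 to 6.72). Endocardium-like cells, at 15.6 and 16.2 CPM, were nearly level (0.057, −0.66 to 0.77). The thinned share of Tbx5-positive cells was 11.2% (8.42 to 14.4) and 4.26% (2.69 to 6.38) in SoM/aSHF-like cells, and 2.99% (1.21 to 6.07) and 1.05% (0.343 to 2.44) in septum transversum-like cells. In MLP-like cells Tbx5 was at 7.795 and 4.81 CPM, and its thinned share, 2.83% (1.82 to 4.18) and 2.92% (2.02 to 4.08), was likewise low. The septum transversum-like and MLP-like intervals overlapped with those of vascular endothelium-like cells, 0.917% (0.111 to 3.27) and 0.461% (0.0117 to 2.54), so nothing is read from the share in either. In CPM the septum transversum-like level was 10.7 CPM (7.82 to 14.4) and 2.85 CPM (1.74 to 4.41), beside 0.517 CPM (0.0627 to 1.87) and 0.298 CPM (0.00755 to 1.66) in vascular endothelium-like cells.

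Tbx18, known for the somites, the sinus horns and the epicardium, had by far its highest level in epicardium-like cells, a cluster of 64 and 88 cells with Upk3b and Wt1 among its leading genes. The level was 456 CPM (420.2 to 494) in the library labelled Ctrl and 344 CPM (314 to 376) in the library labelled cKO, and 98.4% and 97.7% of the cells had a UMI. By sex it was at 381 and 507 CPM labelled Ctrl and 385 and 341 CPM labelled cKO in Xist-positive and Y-positive cells. Sinus venosus mesenchyme-like cells, a cluster led by Postn, Alcam, Sfrp5 and Shox2, came second with 144 CPM (135 to 153) and 136 CPM (129 to 143), nearly level between the libraries (log2 ratio −0.081, −0.20 to 0.043). Next in the library labelled Ctrl were septum transversum-like cells with 22.9 CPM (18.5 to 27.9) and MLP-like cells with 21.6 CPM (19.3 to 24.01), which overlapped. In the library labelled cKO these stood at 9.85 CPM (7.66 to 12.5) and 11.9 CPM (10.4 to 13.5), and dermomyotome-like cells, at 16.1 CPM (12.8 to 20.1), were above the septum transversum-like ones. Endothelium-like and endocardium-like cells stayed below 1 CPM.

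Tbx18 was 2.32-fold lower (1.69 to 3.21) in septum transversum-like cells of the library labelled cKO, 1.92-fold lower (1.48 to 2.51) in pSHF-like cells, at 13.1 and 6.79 CPM, and 1.81-fold lower (1.53 to 2.16) in MLP-like cells. The MLP-like and pSHF-like values lie near 2-fold and pass it under some other ways of grouping the cells. Of the MLP-like clusters, the Irx1-led one had 25.2 and 13.4 CPM and the Prdm1-led one 12.3 and 7.15 CPM. The thinned share of positive MLP-like cells was 9.08% (7.23 to 11.2) and 5.05% (3.85 to 6.49), above the 0.917% (0.111 to 3.27) and 0.461% (0.0117 to 2.54) of vascular endothelium-like cells. In dermomyotome-like cells the level was 16.3 and 16.1 CPM (log2 ratio −0.013, −0.44 to 0.40).

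Tbx20, expressed in myocardium and endocardium, had its highest levels in heart populations. Endocardium-like cells had 227 CPM (209 to 247) in the library labelled Ctrl and 158 CPM (140.5 to 176) in the library labelled cKO, and CM-like cells 164 CPM (153 to 176) and 111 CPM (103 to 118). Sinus venosus mesenchyme-like cells had 54.7 and 39.2 CPM, septum transversum-like cells 45.3 and 32.7 CPM and epicardium-like cells 26.4 and 17.5 CPM. The other compared populations were at or below 3.59 CPM, and BrM-like cells had 3 and 7 UMIs in all. The log2 ratios were −0.53 (−0.73 to −0.33) in endocardium-like, −0.57 (−0.71 to −0.43) in CM-like, −0.48 (−0.70 to −0.27) in sinus venosus mesenchyme-like and −0.47 (−0.75 to −0.19) in septum transversum-like cells. Their intervals overlapped, and none was past 2-fold.

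**Figure D2:**
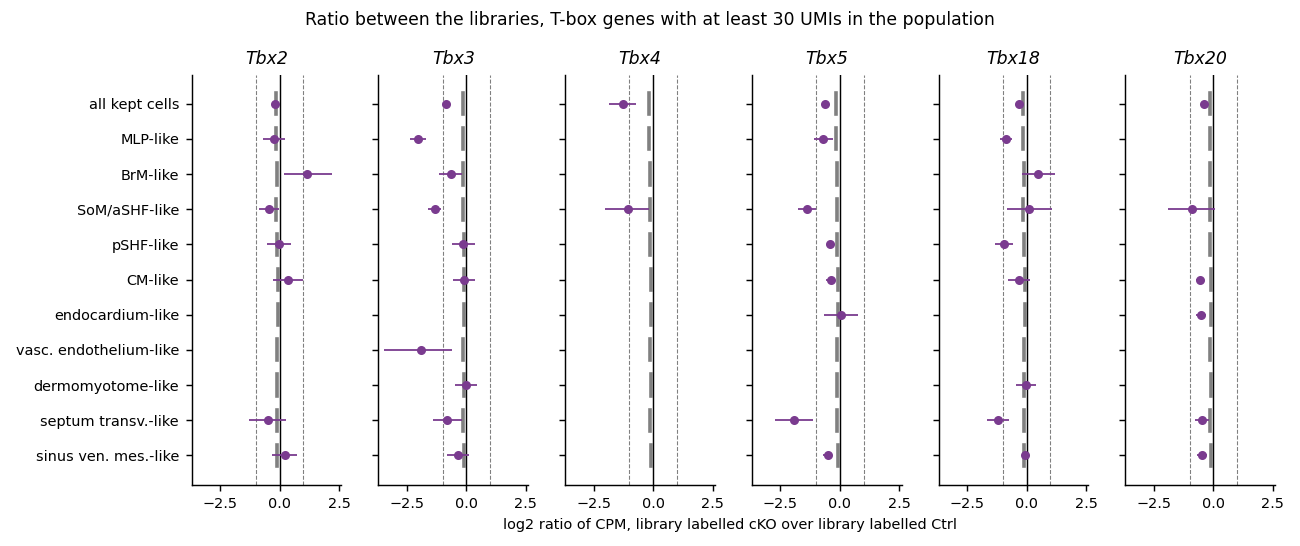
Log2 ratio of CPM, library labelled cKO over library labelled Ctrl (horizontal axis), for each T-box gene in all kept cells and 10 populations, shown only where the gene had at least 30 UMIs over both libraries. Points carry 95% counting intervals, dashed lines mark 2-fold either way, and grey bars mark the median of all measured genes. Points left of the lower dashed line are Tbx3 in MLP-like, SoM/aSHF-like and vascular endothelium-like cells, Tbx4 in all kept and SoM/aSHF-like cells, Tbx5 in SoM/aSHF-like and septum transversum-like cells and Tbx18 in septum transversum-like cells, and Tbx2 in BrM-like cells is the only member past 2-fold upward.

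Members past 2-fold were counted per population. In SoM/aSHF-like cells 3 of 6 measured members were lower by 2-fold or more (Tbx3, Tbx4 and Tbx5), where 5.47% of all measured genes were past 2-fold either way. Tbx4 counts there with 33 and 16 UMIs, and its thinned shares, 2.19% (1.05 to 3.99) and 1.16% (0.428 to 2.51), overlapped with what vascular endothelium-like cells allow, as did its level in the library labelled cKO. The count was 2 with a minimum of 100 UMIs and in the cells of either sex, and 4 without integration. In septum transversum-like cells 2 of 5 were lower (Tbx5 and Tbx18), against 3.68%. In MLP-like cells 1 of 4, Tbx3, was lower, against 7.62% of all genes. This last count depends on which cells are called MLP-like: it was 2 without integration of the libraries and 3 with all variable genes in the clustering, where Tbx18 (−1.01) was lower and Tbx2 (1.45) higher beside the lower Tbx3. It was also 3 with a slightly different set of genes left out of the clustering, where Tbx5 (−1.24) and Tbx18 (−1.23) joined. In vascular endothelium-like cells the 1 member measured, Tbx3, was lower, against 5.36%. In BrM-like cells 1 of 3, Tbx2, was higher, at 1.34 and 2.99 CPM from 13 and 30 UMIs (2.23-fold, 1.13 to 4.66), against 8.94%. Thinned shares of Tbx2-positive cells, 1.02% (0.331 to 2.36) and 1.66% (0.834 to 2.96) in BrM-like cells, were near the limit in vascular endothelium-like cells, where 0 of 218 and 0 of 217 cells allow up to 1.38% and 1.38%. The levels overlapped as well, with 1.34 CPM (0.713 to 2.29) and 2.99 CPM (2.02 to 4.27) in BrM-like and 0.517 CPM (0.0627 to 1.87) and 0.596 CPM (0.0722 to 2.15) in vascular endothelium-like cells. With so few counts Tbx2 in BrM-like cells is not told apart from background, and no difference is read from it. By sex the log2 ratios were 1.04 (−0.34 to 2.58) and 1.24 (−0.40 to 3.11), with intervals that span 0. None of the 4 measured in pSHF-like cells, the 5 in CM-like cells, the 5 in sinus venosus mesenchyme-like cells, the 2 in endocardium-like cells or the 2 in dermomyotome-like cells passed 2-fold, beside 3.33%, 3.62%, 3.61%, 4.23% and 5.24% of all genes. The median over the measured members was −0.98 in SoM/aSHF-like and −0.78 in MLP-like cells, where the median gene stood at −0.14 and −0.16.

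Each library held cells with Xist UMIs and no Y-linked UMI and cells with the reverse, which come from different embryos of the pair. The former numbered 3371 and 5083 cells and the latter 2647 and 2778, and they give a look inside each pool, not replicates of a group. In MLP-like cells Tbx3 was at 20.6 CPM in Xist-positive and 23.95 CPM in Y-positive cells labelled Ctrl, and at 5.98 and 3.73 CPM in those labelled cKO. The SoM/aSHF-like cells had 45.7 and 46.2 CPM of Tbx3 labelled Ctrl, and 17.7 and 18.9 CPM labelled cKO. The same cells had 27.3 and 34.4 CPM of Tbx5 labelled Ctrl, and 10.5 and 9.64 CPM labelled cKO. In these 3 cases both embryo sexes of one library stood apart from both of the other.

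Other differences were carried by 1 sex or split between them. Tbx5 in pSHF-like cells was at 94.8 CPM in Xist-positive cells labelled Ctrl and 94.1 CPM in those labelled cKO (log2 ratio −0.011, −0.17 to 0.15). In Y-positive cells it was at 124 and 60.8 CPM (log2 ratio −1.03, −1.23 to −0.83). MLP-like cells had the same split for Tbx5, with log2 ratios of 0.0028 (−0.61 to 0.63) and −2.13 (−2.97 to −1.36) in Xist-positive and Y-positive cells. Tbx18 in sinus venosus mesenchyme-like cells pointed in opposite directions, at 193 and 122 CPM labelled Ctrl and 120.4 and 203 CPM labelled cKO in Xist-positive and Y-positive cells, so the sum was nearly level while the embryos of each pair differed. The nearly level Tbx3 of pSHF-like cells was split too, at 4.82 and 7.34 CPM labelled Ctrl and 6.78 and 3.700 CPM labelled cKO in Xist-positive and Y-positive cells, as was that of dermomyotome-like cells, at 8.13 and 34.8 CPM labelled Ctrl and 14.4 and 12.8 CPM labelled cKO, where the Xist-positive cells labelled cKO numbered 27 with 6 UMIs. Over all kept cells Tbx20 was at 15.4 and 15.7 CPM in Xist-positive cells labelled Ctrl and cKO and at 24.8 and 13.3 CPM in Y-positive cells. The groups did not overlap for Tbx18 in MLP-like cells, at 22.5 and 21.8 CPM labelled Ctrl and 10.3 and 12.1 CPM labelled cKO, nor for Tbx20 in CM-like cells, at 149 and 192 CPM labelled Ctrl and 112 and 109 CPM labelled cKO.

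**Figure D3:**
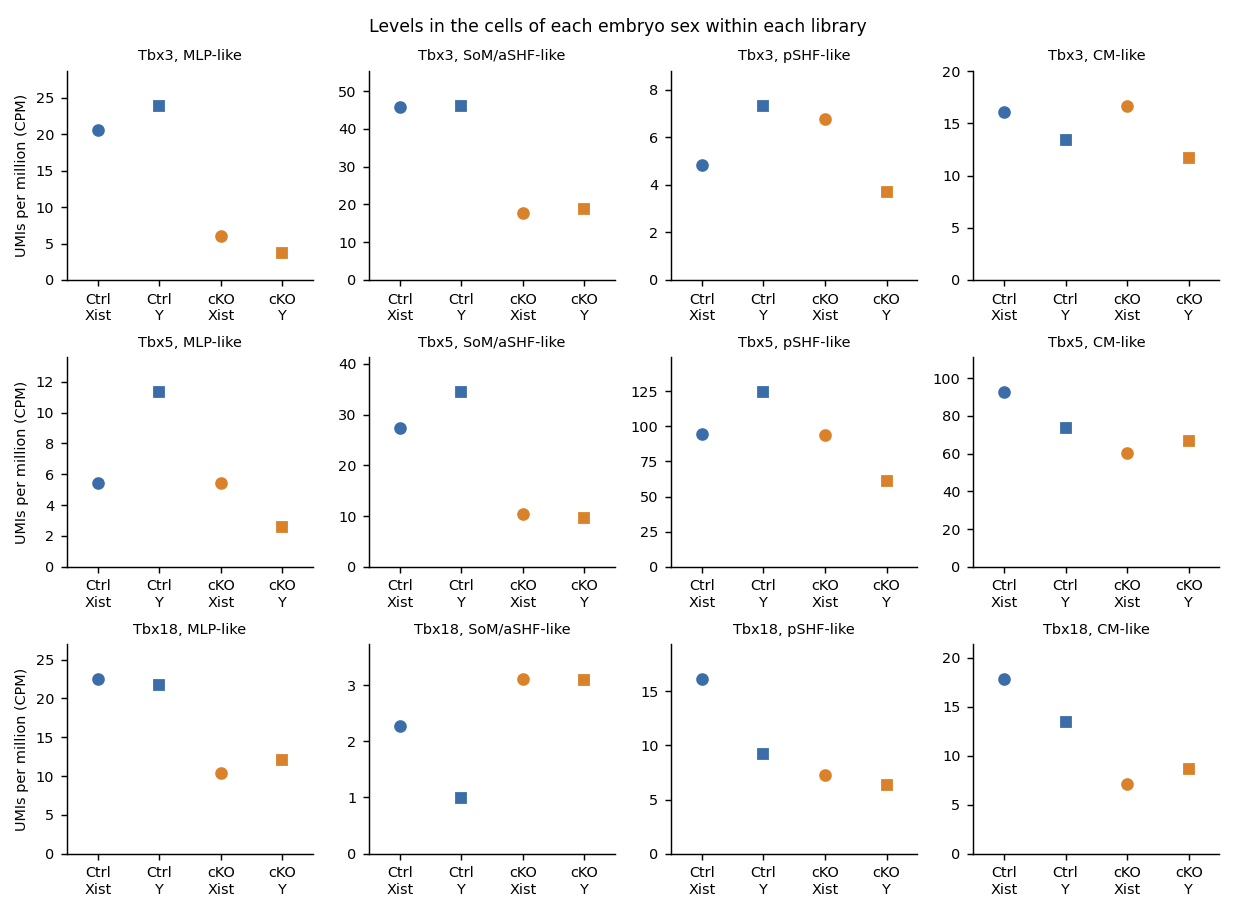
Level (CPM, vertical axis from 0) of Tbx3, Tbx5 and Tbx18 in 4 populations, for cells with Xist UMIs only (circles) and Y-linked UMIs only (squares) of the libraries labelled Ctrl (blue) and cKO (orange). Tbx3 and Tbx5 in SoM/aSHF-like cells separate the libraries, while Tbx5 in pSHF-like cells is at 94.8 and 94.1 CPM in the Xist-positive cells of the libraries labelled Ctrl and cKO.

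The CM-like class held 3 clusters, led by Myh6 (136 and 281 cells), by Myh7 and Tdgf1 (72 and 88 cells) and by Myl2 (59 and 101 cells). Tbx5 was uneven among them, with 137 CPM (123 to 153) and 94.2 CPM (85.2 to 104) in the Myh6-led cluster, 47.2 and 27.7 CPM in the Myl2-led cluster, and 0 and 7 UMIs in the Myh7-led cluster, where a count of 0 allows up to 2.45 CPM. Tbx20 was at 167, 173 and 151 CPM in the 3 clusters of the library labelled Ctrl, whose intervals overlap. It was at 121, 126 and 76.3 CPM in the library labelled cKO, with the Myl2-led cluster (64.4 to 89.7) below the other two.

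The nearly level Tbx3 of CM-like cells was made of opposite differences. In the Myh6-led cluster Tbx3 was at 5.06 CPM (2.61 to 8.84) in the library labelled Ctrl and 17.3 CPM (13.5 to 21.7) in the library labelled cKO, with 8 and 43 positive cells. In the Myh7-led cluster it was at 26.2 CPM (17.9 to 36.9) and 4.74 CPM (1.91 to 9.77), with 18 and 6 positive cells. The values by sex pointed the same way: 6.09 and 4.65 CPM labelled Ctrl against 21.4 and 14.96 CPM labelled cKO in the first cluster, and 39.2 and 20.3 CPM against 4.900 and 3.104 CPM in the second. The last of these values is 1 UMI from 21 cells, and its log2 ratio, −2.71 (−8.14 to 0.071), has an interval that spans 0. Tbx18 in the Myh6-led cluster was lower, at 23.2 CPM (17.5 to 30.2) and 12.8 CPM (9.66 to 16.7), while Tbx2 there was at 2.11 and 6.53 CPM from 5 and 28 UMIs.

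**Figure D4:**
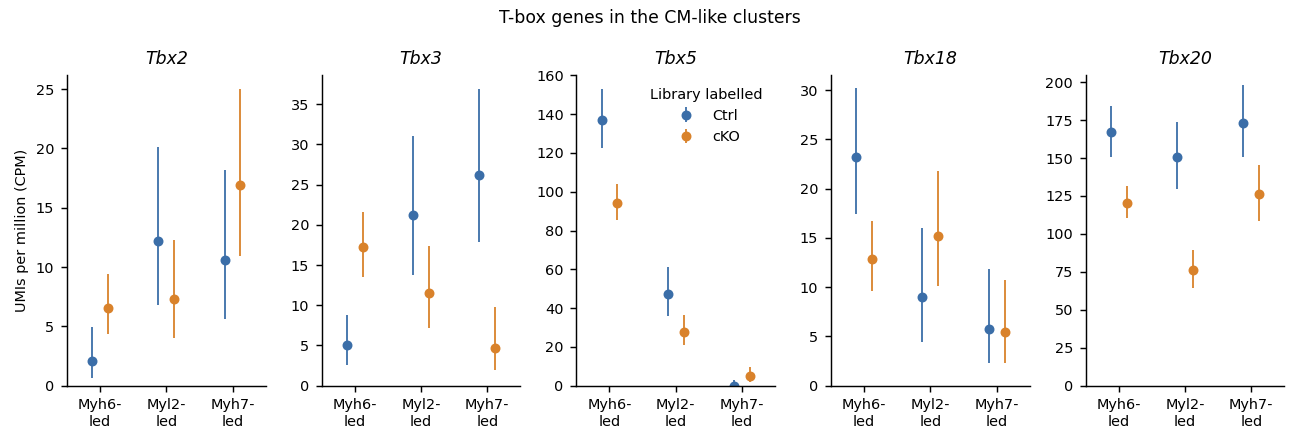
Level (CPM, vertical axis from 0 and scaled per gene) of 5 T-box genes in the CM-like clusters led by Myh6, by Myl2, and by Myh7 and Tdgf1, with 95% Poisson intervals, in the libraries labelled Ctrl (blue) and cKO (orange). Tbx3 is higher in the library labelled cKO in the Myh6-led cluster (17.3 against 5.06 CPM) and lower in the Myh7-led cluster (4.74 against 26.2 CPM).

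Some of the highest levels were in clusters that took no name. A cluster led by Gal, Hoxc5 and Rgcc, with Msx1 and Msx2 among its leading genes, had the highest Tbx3 of all clusters, 60.5 CPM (55.4 to 65.9) and 45.9 CPM (41.7 to 50.3), and 19.6 and 15.9 CPM of Tbx2. This was the highest Tbx2 value in the library labelled Ctrl (16.8 to 22.8), overlapping with the SoM/aSHF-like cells, while in the library labelled cKO the Myh7-led CM-like cluster had 16.9 CPM (10.96 to 25.01) from 25 UMIs, which overlapped with it. A cluster with Wnt2, Osr1 and Rspo2 among its leading genes had the highest Tbx5 value, 149 CPM (139 to 159) and 94.9 CPM (86.6 to 104), which overlapped with 136 CPM (127 to 146) and 94.2 CPM (85.9 to 103) in the smaller pSHF-like cluster and with the Myh6-led CM-like cluster in both libraries, with 84.5% and 64.97% of its 310 and 334 cells positive. Tbx18 was high in a cluster led by Cbr3, Lum and Foxd1, at 97.9 CPM (86.7 to 110.2) and 63.96 CPM (57.8 to 70.6), together with 40.03 and 118 CPM of Tbx1. The sexes differed in this cluster, with 66.7 and 72.4 CPM of Tbx18 labelled Ctrl and cKO in Xist-positive cells (log2 ratio 0.12, −0.23 to 0.48) and 131 and 51.8 CPM in Y-positive cells (−1.34, −1.73 to −0.95). A cluster led by Crym and Tgfbi shared 9 of the 12 MLP markers. In it Tbx18 was at 36.2 CPM (31.3 to 41.6) and 11.1 CPM (9.04 to 13.5), lower in the library labelled cKO as in MLP-like cells, while Tbx3 had 16 and 7 UMIs, too few for a ratio. Tbx18 was also lower in a second Crym-led cluster, which has Foxd2 among its leading genes, at 65.3 CPM (55.9 to 75.8) and 17.98 CPM (13.4 to 23.6).

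Co-detection with Tbx1 differed between members. Over all kept cells thinned to 5000 UMIs, 692 of 6520 cells labelled Ctrl and 1382 of 8870 labelled cKO had a Tbx1 UMI. Tbx5 was found in 2.17% (1.22 to 3.55) of these and in 14.7% (13.8 to 15.6) of the other cells labelled Ctrl, and in 1.37% (0.8297 to 2.14) and 11.6% (10.8 to 12.3) of those labelled cKO. Tbx20 was likewise rarer in Tbx1-positive cells, with 1.01% and 6.86% in the library labelled Ctrl and 0.579% and 6.72% in the library labelled cKO. These shares over all kept cells also depend on which populations hold each gene. In CM-like cells 4 of 5 Tbx1-positive cells labelled Ctrl had Tbx20, against 49.03% of the others, and 0 of 6 labelled cKO, against 38.6%. Unthinned CM-like shares with and without Tbx1 overlapped. They were 69.2% (38.6 to 90.9) and 79.9% (74.5 to 84.7) labelled Ctrl, and 44.0% (24.4 to 65.1) and 68.1% (63.5 to 72.4) labelled cKO. In pSHF-like cells, which had the highest Tbx5 among named populations, Tbx5 was found in 11.1% (3.11 to 26.1) of Tbx1-positive and 36.6% (33.2 to 40.2) of Tbx1-negative cells labelled Ctrl, and in 10.7% (4.03 to 21.9) and 31.2% (27.9 to 34.6) of those labelled cKO. Without thinning these shares were 41.5% and 66.4% labelled Ctrl and 38.1% and 59.8% labelled cKO. As a background for Tbx1, 1.89% and 1.28% of CM-like cells labelled Ctrl and cKO and 3.14% of erythroid-like cells had a thinned Tbx1 UMI, and for the members 0 of 159 erythroid-like cells had one, which allows a share of up to 1.89%.

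Over all kept cells the thinned shares of Tbx18 overlapped between cells with and without Tbx1. It was found in 8.53% (6.55 to 10.9) of Tbx1-positive and 10.2% (9.48 to 11.1) of Tbx1-negative cells labelled Ctrl, and in 8.900% (7.45 to 10.5) and 8.67% (8.04 to 9.33) of those labelled cKO. Counted on unthinned cells, Tbx18 was in 21.2% (19.2 to 23.3) and 20.1% (18.98 to 21.2) of cells labelled Ctrl with and without Tbx1, which overlapped, and in 18.5% (16.9 to 20.1) and 15.9% (15.1 to 16.8) of those labelled cKO, which did not. Within MLP-like cells the thinned shares were 8.99% and 9.104% in the library labelled Ctrl and 3.86% and 5.68% in the library labelled cKO. In pSHF-like cells few had both Tbx18 and Tbx1. Tbx18 was in 11.1% (3.11 to 26.1) and 5.08% (3.64 to 6.89) of cells labelled Ctrl with and without Tbx1, and 5.36% (1.12 to 14.9) and 2.86% (1.799 to 4.29) of those labelled cKO, overlapping in both libraries. Without thinning the pSHF-like shares were 24.5% (16.7 to 33.8) and 14.2% (11.8 to 17.00) labelled Ctrl, which overlapped. Those labelled cKO, 17.7% (11.2 to 26.00) and 7.99% (6.12 to 10.2), did not. SoM/aSHF-like cells labelled cKO had Tbx18 in 9.28% (4.33 to 16.9) of cells with Tbx1 and 1.42% (0.524 to 3.07) of the others without thinning, and those labelled Ctrl in 2.41% (0.293 to 8.43) and 2.64% (1.27 to 4.799). Cells with more UMIs are likelier to show both genes when cells are not thinned. In the Foxd1-containing cluster 51 of 168 Tbx1-positive cells labelled cKO, 30.4% (23.5 to 37.9), had Tbx18, against 21.9% (16.95 to 27.5) of Tbx1-negative cells, and 8 of 21 labelled Ctrl, 38.1% (18.1 to 61.6), against 34.04% (26.3 to 42.5), overlapping in both libraries. Tbx3 differed between the libraries in this respect in the thinned shares over all kept cells. It was found in 6.07% (4.41 to 8.12) of Tbx1-positive cells labelled Ctrl and 7.98% (7.296 to 8.704) of Tbx1-negative ones. Of 1382 Tbx1-positive cells labelled cKO 9 had it, 0.651% (0.298 to 1.23), against 5.66% (5.15 to 6.21) of Tbx1-negative cells. Without thinning the Tbx3 shares were 14.9% (13.2 to 16.7) and 22.04% (20.9 to 23.2) in the library labelled Ctrl. They were 3.17% (2.51 to 3.95) and 14.6% (13.7 to 15.4) in the library labelled cKO, so Tbx3 was rarer with Tbx1 in both. The thinned Tbx3 shares of Tbx1-positive cells overlapped in both libraries with those of vascular endothelium-like cells given above, while the share of Tbx1-negative cells labelled cKO lay above. Within MLP-like cells the thinned Tbx3 shares with and without Tbx1 overlapped in both libraries. They were 6.74% (3.53 to 11.5) and 7.61% (5.72 to 9.89) labelled Ctrl, and 0.771% (0.159 to 2.24) and 3.11% (1.98 to 4.63) labelled cKO.

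**Figure D5:**
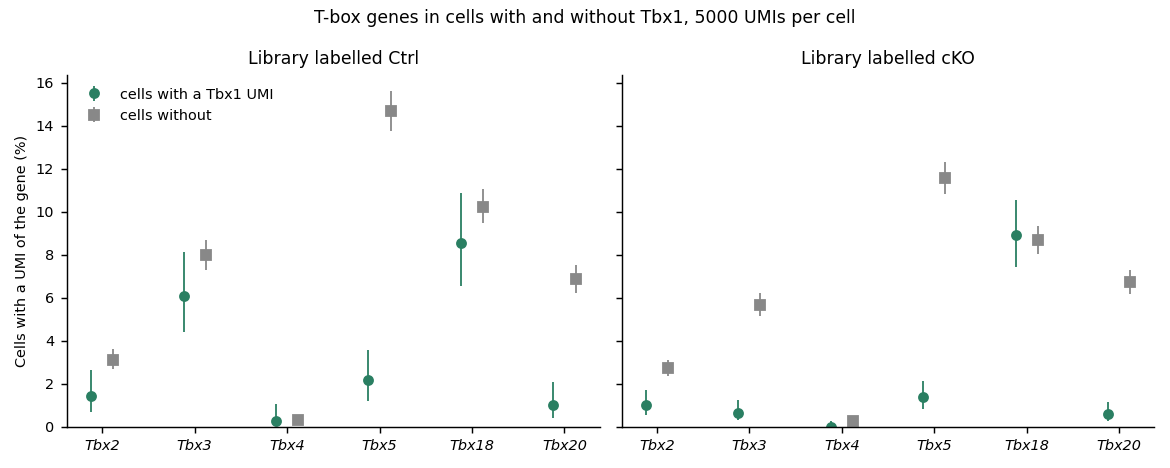
Percent of cells with a UMI of each T-box gene (vertical axis) among cells with a Tbx1 UMI (green circles) and without one (grey squares), after thinning to 5000 UMIs per cell, with Clopper-Pearson 95% intervals, in each library. Over all kept cells Tbx5 and Tbx20 are rarer with Tbx1 in both libraries, Tbx18 overlaps in both libraries, and Tbx3 is rarer with Tbx1 mainly in the library labelled cKO (0.651% against 5.66%).

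Among the members themselves Tbx3 was more frequent in cells with Tbx2. Of Tbx2-positive cells 17.2% (12.1 to 23.3) had Tbx3 in the library labelled Ctrl, against 7.49% of the others, and 15.1% (10.7 to 20.6) against 4.62% in the library labelled cKO. Tbx20 was found in 11.7% of Tbx5-positive and 5.398% of Tbx5-negative cells labelled Ctrl, and in 14.01% and 4.85% of those labelled cKO. Tbx18 and Tbx3 were seldom in the same cell: 3.16% of Tbx3-positive cells labelled Ctrl had Tbx18, against 10.6% of the others.

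Across 47 points, each a cluster in 1 library, the genes closest in pattern to each member were found by Pearson's r of log2(CPM + 5), given as a description since points share libraries and depth. Tbx20 had the closest companions, Igf2r (0.91), Smtnl2 (0.88) and Lmo7 (0.88). Tbx5 was closest to Wnt2 (0.84), a signal of the posterior second heart field, then to Fam188a (0.71) and Hadh (0.70). Tbx2 and Tbx3 had Msx2 in common, a homeobox repressor, at 0.83 and 0.72, followed by Bambi and Pde3a for Tbx2 and by Lef1 and Prkar2a for Tbx3, while r between Tbx2 and Tbx3 was 0.62. Tbx18 was closest to Mgarp (0.74), Flrt2 (0.74) and Itga4 (0.70). Tbx4, at a few UMIs per cluster, had Rgs5 (0.57), Ppp2r2b and Arl4c. Against Tbx1 the r was −0.55 for Tbx20 and −0.54 for Tbx5, and 0.071 for Tbx18.

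Of 11 other T-box genes, 5 had at least 30 UMIs over both libraries: Tbx1, Tbx15, Eomes, Tbr1 and Mga. Mga, which carries a T domain beside a helix-loop-helix domain, was broadly present at 79.1 and 58.3 CPM, and the other 9 beside Tbx1 and Mga had at most 34 UMIs in a library. Among 16 genes listed as T-box heart targets and partners, 2 of 16 measured in CM-like cells were lower by 2-fold or more and none higher, where 3.62% of all genes were past 2-fold either way, with a median log2 ratio of −0.28 beside −0.086 over all genes. They were Nppb, a natriuretic peptide of chamber myocardium, at 300.4 and 101 CPM (log2 ratio −1.57, −1.70 to −1.44), and Bmp10, a growth factor of trabecular myocardium, at 18.04 and 7.81 CPM. In the other populations counts went both ways, and no median was higher than that of all genes in those where genes of the list were higher. In sinus venosus mesenchyme-like cells 2 of 13, Nppa and Cited1, were higher and none lower, against 3.61% of all genes (median −0.11 beside −0.098), and in SoM/aSHF-like cells 1 of 11, Smpx, was higher and none lower, against 5.47% (median −0.42 beside −0.14). BrM-like cells had 2 of 9 higher, Has2 and Gata6, and 3 lower, Mycn, Tgfb2 and Shox2, against 8.94% (median −0.80 beside −0.13). Dermomyotome-like cells had Gata6 higher and Mycn lower of 7, against 5.24% (median −0.60 beside −0.11). MLP-like cells had 2 of 10 lower, Gja1 and Shox2, against 7.62%, and vascular endothelium-like cells 3 of 8, Gja5, Has2 and Id2, against 5.36%, with none higher in either. None passed in pSHF-like, endocardium-like or septum transversum-like cells. Among 10 listed targets of Tbx5 in heart and lung progenitors, 5 of 9 measured in MLP-like cells were lower by 2-fold or more and none higher, against 7.62% of all genes, with a median of −1.27 beside −0.16. They were Ptch1, the Hedgehog receptor, at 80.9 and 31.1 CPM, Aldh1a2, an enzyme of retinoic acid synthesis, at 72.2 and 30.03 CPM, and, at lower levels, Fgf10, Foxf1 and Gli1. Tbx5 itself was low in MLP-like cells, at 7.795 and 4.81 CPM, with log2 ratios of 0.0028 and −2.13 in Xist-positive and Y-positive cells. Fgf10 is also among the markers listed for MLP-like cells. Whether these genes follow Tbx5 was not tested. In SoM/aSHF-like cells 2 of 9, Fgf10 and Ptch1, were lower and none higher, against 5.47%, with a median of −0.62 beside −0.14. In BrM-like cells 2 of 7 were lower and 1 higher, against 8.94%, with a median of −0.85 beside −0.13. Of these Fgf10, a growth factor of the second heart field, was at 55.6 and 1.79 CPM and Ptch1 at 61.2 and 23.4 CPM, while Osr1, a zinc finger factor, was higher at 1.34 and 2.69 CPM from 13 and 27 UMIs. Tbx5 had 6 and 3 UMIs there. In pSHF-like cells, where Tbx5 was highest among the named populations, 1 of 10, Fgf10, was lower and none higher, against 3.33%, with a median of −0.15 beside −0.12. In septum transversum-like cells, where Tbx5 was 3.76-fold lower, 0 of 9 passed in either direction, against 3.68% (median −0.39 beside −0.13). None passed of 9 in sinus venosus mesenchyme-like cells, against 3.61%, or of 4 in vascular endothelium-like cells, against 5.36%. Dermomyotome-like cells had Wnt2 higher and Aldh1a2 lower of 6, against 5.24%, CM-like cells Fgf10 lower of 8, against 3.62%, and endocardium-like cells Sall4 lower of 3, against 4.23%. Listed genes under 50 CPM in both libraries were named after their values had been seen.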

How the data were processed

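The deposited matrices hold raw UMI counts, genes by barcodes. The authors aligned reads to mm10 and counted UMIs with Cell Ranger 3.1.0 (submitters' notes), with no further normalization in the files. Here cells with at least 1000 genes and at most 10% mitochondrial UMIs were kept (411 of 7418 and 508 of 10281 failed), and the cells scored highest by Scrublet (scanpy 1.11.5) were removed at 0.8% per 1000 recovered cells (416 and 804), since its automatic threshold called 0% in the library labelled Ctrl. Totals kept were 117490029 and 136773792 UMIs.

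Clustering used Seurat 5.3.0 (2000 variable genes, 30 dimensions, reciprocal principal components, resolution 1). It left out 157 genes by name, all T-box genes among them, and 1784 that differed 2-fold between the libraries within 11 provisional classes. The naming rule was refined between a first run and the reported one, and it enters this exclusion, so the first version is given as an alternative. Clusters were named from marker lists. A marker counted when found in 10% of the cluster's cells and higher by 0.5 on the log2 scale with 5 CPM added; at least 3 markers and over 50% of a list were needed (75% on a tie among the 10 leading genes), and these thresholds were set after clusters had been seen. Names are rebuilt and may differ from the study's. The members, lists and comparisons were chosen with earlier results of these data known.

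Counts were summed per population. Poisson, exact conditional and Clopper-Pearson 95% intervals were computed. With 1 library per group no test was made, and ratios past 2-fold were counted among genes with at least 30 UMIs in populations of at least 100 cells per library. The script that forms ratios and intervals was checked on simulated counts. All members were named, listed genes when at least 50 CPM and past 2-fold, and the 3 most similar genes per member. Alternatives were other cell filters, clusterings, scaling, count minimums, thinning, and cells of 1 sex. Limits printed for a count of 0 are 3 counts. GRCm38 positions came from RefSeq. Further libraries of the series were not analysed here.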

Additional observations from a re-analysis of the deposited data

Results flagged for a closer look

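Tbx2 had log2 ratios, cKO over Ctrl, of 1.16 (0.18 to 2.22) in BrM-like cells and −0.46 (−0.88 to −0.049) in SoM/aSHF-like cells. The SoM/aSHF-like interval holds the −0.14 of the median gene there. Xist-positive and Y-positive cells of that population gave −0.47 (−1.05 to 0.090) and −0.50 (−1.20 to 0.18), so no difference in direction is read. The BrM-like value rests on 13 and 30 UMIs, and the sexes gave 1.04 (−0.34 to 2.58) and 1.24 (−0.40 to 3.11). The share of positive BrM-like cells overlapped with what vascular endothelium-like cells allow, so the BrM-like value is not told apart from background.

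Tbx3 differed in direction within CM-like cells, with log2 ratios of 1.77 (0.88 to 2.79) in the Myh6-led cluster, −2.46 (−3.89 to −1.26) in the Myh7-led cluster and −0.88 (−1.77 to −0.0049) in the Myl2-led cluster. With 1 library per group neither comparison between populations, of Tbx2 or of Tbx3, was tested. The Myh6-led cluster held 2.06% (1.73 to 2.44) of kept cells labelled Ctrl and 3.13% (2.78 to 3.51) of those labelled cKO. The part of this share in the result was not tested.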

How the results depend on the processing

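No paired analysis was possible because each group has 1 library. Tbx3 in MLP-like and SoM/aSHF-like cells and Tbx5 and Tbx18 in septum transversum-like cells stayed lower in the library labelled cKO under each alternative that gave a value, with log2 ratios of −2.68 to −1.65, −1.90 to −1.01, −2.39 to −1.78 and −1.56 to −0.80. Over all kept cells, Xist-positive cells gave −0.67 for Tbx3, −0.42 for Tbx5, −0.055 for Tbx18, and turned Tbx2 (0.025) and Tbx20 (0.026). Y-positive cells gave −1.13, −0.89, −0.65, −0.61 and −0.89 for these in the same order, and centring on the median gene −0.68, −0.47, −0.15, −0.030 and −0.22. In MLP-like cells Tbx5 turned in Xist-positive cells (0.0028). The causes were not tested.

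Counts of members past 2-fold moved as follows. In SoM/aSHF-like cells, where the reported count is 3, it was 2 in the cells of either sex, with at least 100 UMIs, centred on the median gene or with doublets kept, and 4 without integration or under the alternative added below. In MLP-like cells, where the reported count is 1, it was 2 in Xist-positive cells, 2 in Y-positive cells, 2 without integration, 2 with doublets kept, 2 at resolution 0.6, and 3 with all variable genes. A further alternative was chosen after seeing the data: the genes left out of the clustering were found in provisional classes named without the condition on ties, as in a first run of the clustering. It excluded 1763 genes in place of 1784, with 1724 in common. Under it the MLP-like count was 3 (8.02% of all genes), the pSHF-like count 1 and the share of Tbx1-positive MLP-like cells labelled Ctrl with Tbx5 0%, and no sinus venosus mesenchyme-like class was named. Of all values under it 36 stayed within their limits and 7 moved, among them Tbx18 in SoM/aSHF-like (−0.97, reported 0.11) and Tbx2 in MLP-like cells (0.22, reported −0.25), which changed sign. Xist-positive cells alone, with fewer UMIs, gave 0 in BrM-like and vascular endothelium-like and 1 in CM-like, dermomyotome-like and pSHF-like cells, and Y-positive cells 0 in BrM-like and vascular endothelium-like and 1 in septum transversum-like, dermomyotome-like, pSHF-like and sinus venosus mesenchyme-like cells. With doublets kept the count was 1 in pSHF-like and septum transversum-like cells. At least 100 UMIs left 0 in BrM-like and vascular endothelium-like and 1 in septum transversum-like cells. A minimum of 1 UMI, where 21.5% to 27.7% of all genes were past 2-fold, gave 3 in BrM-like, MLP-like and septum transversum-like and 1 in CM-like, pSHF-like, endocardium-like and dermomyotome-like cells.

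The share of Tbx1-positive cells with Tbx5 depends on depth. Without thinning it was 7.82% and 5.48% over all kept cells labelled Ctrl and cKO, and 6.06% and 2.83% in MLP-like cells. Asking for 2 Tbx1 UMIs without thinning gave 4.58% and 3.42%, and 5.26% and 1.95% in MLP-like cells. Y-positive cells labelled cKO gave 0.6803%. In MLP-like cells it was 0% for either sex labelled cKO and for Xist-positive cells labelled Ctrl, and 0% labelled Ctrl with all variable genes. Tbx3 in the CM-like clusters kept its sign in each sex, an alternative chosen after seeing the data, with 1 UMI in the Y-positive Myh7-led cells labelled cKO. Of the values per population, with Tbx3 in the CM-like clusters, 230 stayed within their counting interval, 40 moved beyond it and 1, Tbx5 in MLP-like cells, turned. Of the ratios over all kept cells, the counts and the shares 96 stayed, 57 moved and 2 turned. Of the ratios per population, those that moved and changed sign, beside the ones above, had reported intervals that span 0: Tbx2 in MLP-like cells with all variable genes (1.45), Tbx3 in dermomyotome-like (0.83) and pSHF-like cells (0.49) with Xist only, and, with Y-linked UMIs only, Tbx18 in dermomyotome-like (0.60) and Tbx18 (0.73) and Tbx2 (−0.71) in sinus venosus mesenchyme-like cells. Of single clusters by sex, Tbx5 in the larger pSHF-like cluster (0.23, 0.0094 to 0.46, where the sum over both gave −0.32, −0.48 to −0.16), Tbx5 in the Irx1-led cluster (0.045, −0.59 to 0.69, where the sum over both gave −0.80, −1.22 to −0.38), Tbx18 in epicardium-like cells (0.014, −0.26 to 0.29, where the sum over both gave −0.41, −0.58 to −0.23) and Tbx18 in the Foxd1-containing cluster (0.12, −0.23 to 0.48, where the sum over both gave −0.61, −0.84 to −0.39) changed sign in Xist-positive cells. At this depth Tbx4 outside SoM/aSHF-like cells and Tbx20 in MLP-like cells had under 30 UMIs over both libraries, which gives no ratio.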
